A study of Mus musculus with 6 samples.

Results

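Genes of the Ras, PI3K-Akt and MAPK signalling routes and of their feedback, 9 in number, were followed in mouse melanocytes 24 hours after transfection with an siRNA against Dicer. They were Shc1, Nras, Pik3ca, Pik3r3, Phlpp1, Spred1, Spry1, Dusp10 and Jun. They are 9 of 7486 genes with a probe set of their own, and each had exactly 1 probe set that the platform annotation gives to that gene alone. The cells were Melan-a, an immortal line of pigmented melanocytes from C57BL/6 mice, so all arrays describe a single line in culture. The tested cultures received siDicer, and the control cultures received siScr, a control siRNA, each at 50 pmol per well with the same lipid and magnetic transfection reagents. Each group had 3 arrays, which the submitters call biological replicates. Replicates 1, 2 and 3 were at passage 47, 54 and 56 in both groups. Both groups grew with 10% fetal bovine serum and 200 nM TPA. This phorbol ester activates protein kinase C, which can act on the Ras and MAPK route. No array shows these genes without TPA, and activity of the route was not measured. Dicer1 was not analysed here, so the groups rest on the labels.

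Growth factor receptors and integrins pass signals to Ras through adaptors such as Shc1 and the exchange factor Sos. Active Ras turns on the Raf, MEK and ERK kinases and also PI3K, whose lipid product recruits Akt to the membrane. Both routes carry their own brakes, the Sprouty and Spred proteins and the dual-specificity phosphatases on the MAPK side and phosphatases such as Phlpp1 on the Akt side. In melanocytes these routes control survival, division and pigment cell maturation, and activating changes in NRAS are common in human melanoma. Dicer cuts the precursors of microRNAs, small RNAs that pair through their seed with messenger RNAs and lower their output.

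Some of the 9 genes are known microRNA targets in other systems, given here as background. Nras belongs to the Ras family described as targeted by let-7, Spred1 is a target of miR-126 in endothelial cells, and Spry1 is a target of miR-21 in mouse heart fibroblasts. The mature sequences from RefSeq (GRCm38.p6) are shown because they are Dicer products. Capitals mark the seed, bases 2 to 8, and the 3 microRNAs share no seed. Target sites in the messenger RNAs and the mature microRNAs were not analysed here.
mmu-let-7a-5p: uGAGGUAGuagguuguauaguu
mmu-miR-126a-3p: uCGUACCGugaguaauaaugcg
mmu-miR-21a-5p: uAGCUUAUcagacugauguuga

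The promoters of Jun and Dusp10 are shown because they share a sequence element. Jun is known in human cells to act on its own promoter through an AP-1 element with the letters TGACATCA. This element was searched on both strands in the RefSeq promoter windows (GRCm38.p6), which run from 250 bases before to 50 after the start site. It was present in 2 of the 12 windows of the 9 genes, that of Jun, 45 bases before the start, and that of Dusp10, 157 bases before it. Of all 32851 windows, 3.62% held it. Because the element was chosen as that of the human Jun promoter, the match in Jun was likely beforehand. The count is therefore no measure of enrichment. The AP-1 element TGANTCA was found in 2 of the 12 windows, those of Pik3ca and Shc1, against 7.81% of all windows. The cAMP response element TGACGTCA was in 0 of the 12, against 1.79% of all windows. These matches describe letters in a window, and factor binding was not measured. The Jun window lies at chr4:95052173-95052472 on the minus strand and the Dusp10 window at chr1:184034131-184034430 on the plus strand, with TGACATCA in capitals.
Jun: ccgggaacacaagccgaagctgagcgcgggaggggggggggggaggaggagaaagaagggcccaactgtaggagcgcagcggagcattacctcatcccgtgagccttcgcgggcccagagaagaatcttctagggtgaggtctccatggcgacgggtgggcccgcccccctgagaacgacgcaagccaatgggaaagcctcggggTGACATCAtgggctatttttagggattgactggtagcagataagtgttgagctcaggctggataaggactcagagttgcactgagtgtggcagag
Dusp10: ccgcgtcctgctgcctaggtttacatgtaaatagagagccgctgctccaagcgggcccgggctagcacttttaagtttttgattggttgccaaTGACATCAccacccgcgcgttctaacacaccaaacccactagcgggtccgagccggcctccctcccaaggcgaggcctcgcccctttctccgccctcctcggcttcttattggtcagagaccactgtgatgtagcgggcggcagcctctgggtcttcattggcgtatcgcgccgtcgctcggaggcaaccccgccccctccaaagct

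None of the 9 genes passed the threshold in siDicer against siScr cells. Values are log2 signals, so a difference of 1 is a doubling, and levels of different probe sets cannot be set against each other. Groups were compared with limma over all 16383 probe sets, with passage pairs as a block and an adjusted p under 0.05 as the threshold. With that rule 0 of 9 genes were called, against 0.995% of all probe sets, of which 0.757% were higher and 0.238% lower in siDicer. Without the block 0 of 9 were called, against 0.214% of probe sets. At an unadjusted p under 0.05, 0 of the 9 passed in limma with or without the block, against 15.7% of probe sets with it. The 9 log2 changes, siDicer minus siScr, lay between -0.081 and 0.11 with standard errors from 0.053 to 0.065. Changes above 0 numbered 5 and those below 0 numbered 4, with a median of 0.033, against -0.014 over all probe sets. The median size of the change, without its sign, was 0.043 for the 9 genes, 0.071 for all probe sets and 0.084 for the 9475 brighter than the receptor background described further on. In the 95% intervals of the 9 genes the bounds farthest from 0 were 1.18-fold higher and 1.16-fold lower, or 1.28-fold higher and 1.24-fold lower without the block. Every one of these intervals therefore excluded a 1.5-fold change in either direction, while smaller changes were not excluded. The intervals are for each gene alone and are not widened for looking at 9 genes.

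**Figure D1:**
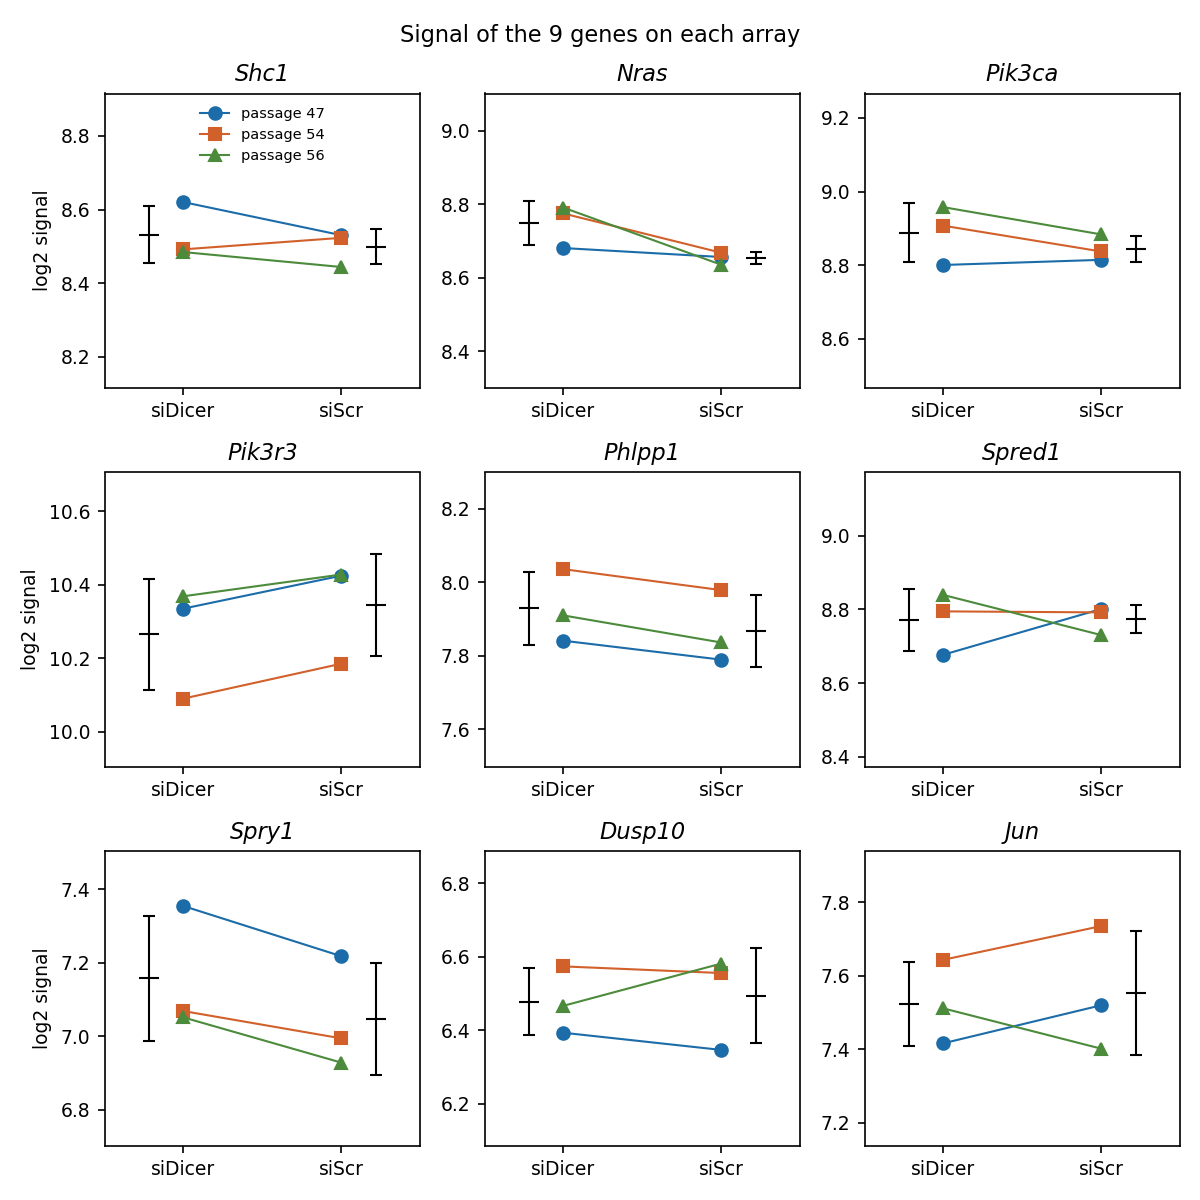
Log2 signal (vertical axis, each panel spanning the same height of 0.8) of the 9 genes in siDicer and siScr cultures. Each symbol is 1 array, lines join arrays of the same passage, and black bars give the mean and SD of 3 arrays. Nras was the gene whose groups did not overlap, and in most panels the distance between passages exceeds that between siDicer and siScr.

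The adaptor Shc1 couples phosphorylated receptors to Grb2 and Sos. Its signal was 8.62, 8.49 and 8.48 in siDicer cells at passages 47, 54 and 56, against 8.53, 8.52 and 8.44 in siScr cells. The groups overlapped, and siDicer was higher in 2 of 3 pairs. The means were 8.53 ± 0.08 in siDicer and 8.50 ± 0.05 in siScr cells (SD, n = 3 each). The log2 change was 0.033 with a 95% interval from -0.10 to 0.17 (limma, adjusted p = 0.808).

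Nras encodes a Ras GTPase that switches between an inactive form bound to GDP and an active form bound to GTP. Its signal was 8.68, 8.78 and 8.79 in siDicer cells, against 8.66, 8.67 and 8.64 in siScr cells. All 3 siDicer arrays were above all 3 siScr arrays, by a narrow margin at passage 47. The separate groups of Nras make 1 of 9 genes. Groups did not overlap in 15.9% of all probe sets and in 19.0% of those brighter than the receptor background. Means were 8.75 ± 0.06 in siDicer and 8.65 ± 0.02 in siScr cells (SD, n = 3 each), and the pair differences were 0.024, 0.11 and 0.15. The log2 change of 0.095, or 1.07-fold, had an interval from -0.042 to 0.23 and did not pass (limma, adjusted p = 0.466). The upper bound of this interval is 1.18-fold higher.

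Pik3ca, the alpha catalytic subunit of PI3K, makes the lipid that recruits Akt. It had 8.80, 8.91 and 8.96 in siDicer cells, against 8.81, 8.84 and 8.88 in siScr cells. The groups overlapped, the passage 47 pair was nearly level and the other pairs were higher in siDicer. The log2 change was 0.043 with an interval from -0.09 to 0.18 (limma, adjusted p = 0.737).

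Pik3r3 encodes a regulatory subunit that holds the catalytic subunit and docks it on receptors and adaptors. Its signal was 10.33, 10.09 and 10.37 in siDicer cells, against 10.42, 10.18 and 10.43 in siScr cells. It was lower in siDicer in all 3 pairs, with differences of -0.089, -0.095 and -0.059, but the groups overlapped because both passage 54 arrays were low. The means were 10.26 ± 0.15 in siDicer and 10.35 ± 0.14 in siScr cells (SD, n = 3 each). The change of -0.081 did not pass, with an interval from -0.21 to 0.047 (limma, adjusted p = 0.503).

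Phlpp1, a phosphatase that takes an activating phosphate off Akt, had 7.84, 8.04 and 7.91 in siDicer cells, against 7.79, 7.98 and 7.84 in siScr cells. It was higher in siDicer in all 3 pairs, by 0.051, 0.057 and 0.073, and the groups overlapped. These pair differences were close to each other. The spread of 0.10 SD within each group includes differences between passages, which the block takes out. The limma interval also draws on the variance of all probe sets. The log2 change was 0.061 with an interval from -0.067 to 0.19 (limma, adjusted p = 0.613). Neither the lipid kinase subunits nor this brake on Akt was called, and Pik3r3 was the member of the PI3K-Akt side with a change below 0.

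Spred1 brings the Ras GTPase-activating protein neurofibromin to the membrane and so restrains Ras. Its signal was 8.68, 8.79 and 8.84 in siDicer cells, against 8.80, 8.79 and 8.73 in siScr cells. The pairs disagreed in direction, with differences of -0.12 at passage 47, 0.003 at passage 54 and 0.11 at passage 56. The log2 change of -0.0042 is the mean of these opposed pairs, with an interval from -0.16 to 0.15 (limma, adjusted p = 0.984).

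Spry1, a Sprouty protein that is induced by growth factor signals and dampens them, had the largest change of the 9 genes in size. Its signal was 7.35, 7.07 and 7.05 in siDicer cells, against 7.22, 6.99 and 6.93 in siScr cells. Within each passage siDicer was higher, by 0.14, 0.074 and 0.12, and between passages the groups overlapped. Means were 7.16 ± 0.17 in siDicer and 7.05 ± 0.15 in siScr cells (SD, n = 3 each). The change of 0.11, or 1.08-fold, did not pass, with an interval from -0.019 to 0.24 (limma, adjusted p = 0.381; without the block, adjusted p = 0.756).

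Dusp10, a phosphatase that acts on the stress kinases JNK and p38, had 6.39, 6.57 and 6.47 in siDicer cells, against 6.35, 6.56 and 6.58 in siScr cells. The groups overlapped, and only the passage 56 pair was lower in siDicer. The change was -0.017 with an interval from -0.16 to 0.13 (limma, adjusted p = 0.919).

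Jun, a subunit of the AP-1 transcription factor and a target of both ERK and JNK signals, had 7.42, 7.64 and 7.51 in siDicer cells, against 7.52, 7.73 and 7.40 in siScr cells. It was lower in siDicer at passages 47 and 54 and higher at passage 56. The means were 7.52 ± 0.11 in siDicer and 7.55 ± 0.17 in siScr cells (SD, n = 3 each). The change was -0.028 with an interval from -0.19 to 0.13 (limma, adjusted p = 0.862). Jun and Dusp10, which share the TGACATCA element printed above, each had pairs on both sides of 0. Whether the element has a part in these signals was not tested.

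**Figure D2:**
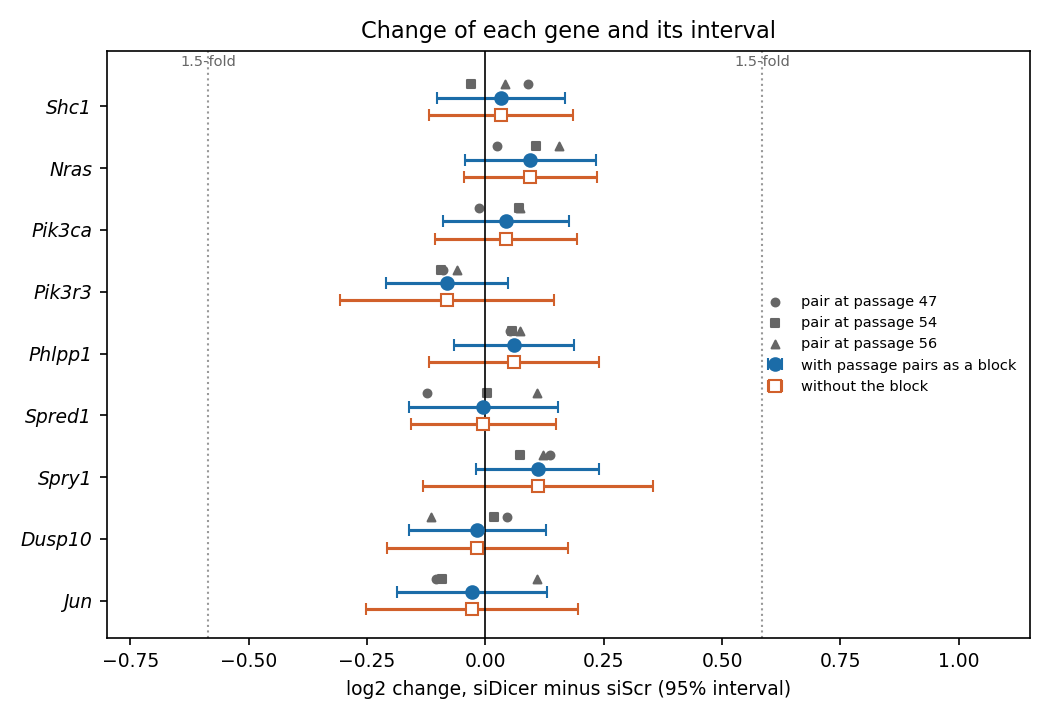
Log2 change of each gene, siDicer minus siScr (horizontal axis), with 95% intervals from limma with (filled circles) and without (open squares) passage pairs as a block. Grey symbols above are the differences of single pairs, and dotted lines mark a 1.5-fold change. Every interval includes 0 and stays inside the dotted lines.

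Of the 9 genes, 4 had the same direction in all 3 pairs: Nras, Phlpp1 and Spry1 were higher in siDicer and Pik3r3 was lower. Over all probe sets this held for 40.4%, and for 47.9% of those brighter than the receptor background, so the count is near that of the arrays at large. The MAPK brakes did not share a direction, since Spry1 was above 0 in every pair while Spred1 and Dusp10 had pairs on both sides of 0.

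For most of the 9 genes, as for most probe sets, arrays of different passages differed by more than siDicer and siScr. The range of the 3 passage means, each the mean of the siDicer and the siScr array, exceeded the size of the siDicer change in 8 of 9 genes, and in 73.6% of all probe sets. A range of 3 means is on average wider than a difference of 2, so these shares are a description. The median range was 0.19 for the 9 genes and 0.13 for all probe sets. Each passage has 1 array per group and no replicate culture, so differences between passages were not tested. Passage goes with replicate number, so it cannot be told apart from other differences between the replicates.

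Spry1 had the widest range, 0.30, with passage means of 7.29, 7.03 and 6.99 at passages 47, 54 and 56. Both passage 47 arrays were above all the other 4. Pik3r3 followed with a range of 0.26 and means of 10.38, 10.14 and 10.40, both passage 54 arrays being the lowest of the 6. Jun had means of 7.47, 7.69 and 7.46, both passage 54 arrays being the highest of the 6. Phlpp1 was also highest at passage 54, with means of 7.82, 8.01 and 7.87. Dusp10 was lowest at passage 47 in both groups, with means of 6.37, 6.57 and 6.52. Shc1 and Pik3ca had narrow ranges of 0.11 each, in opposite directions: Shc1 was highest and Pik3ca lowest at passage 47. Nras and Spred1 had ranges of 0.053 and 0.054. Nras was thus the gene whose siDicer change exceeded its range between passages.

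**Figure D3:**
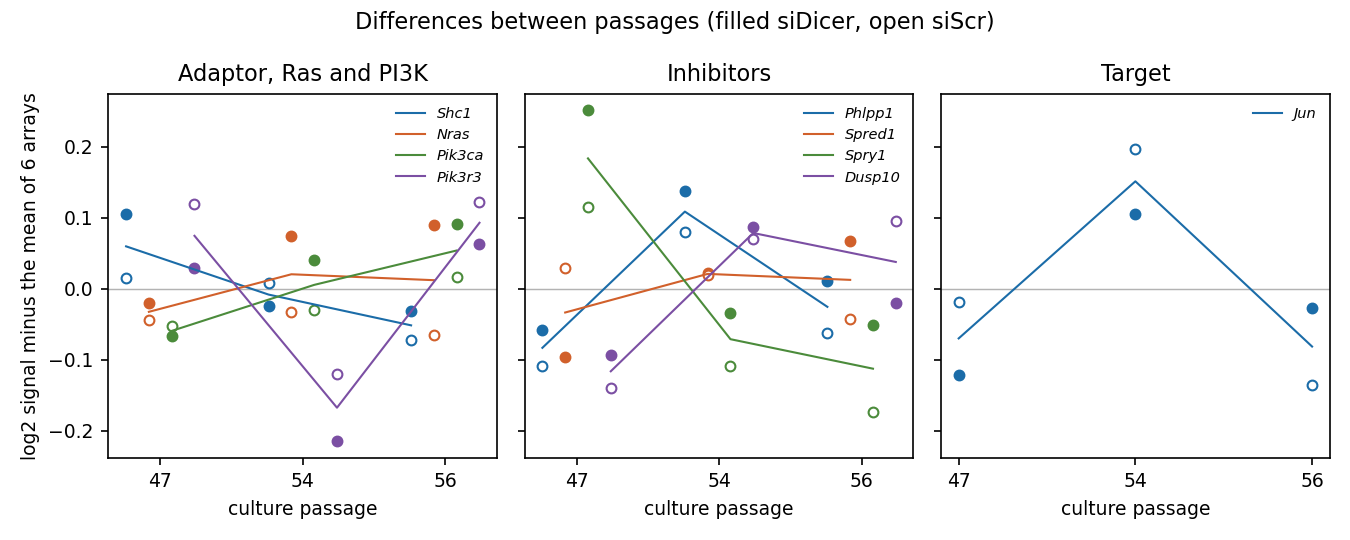
Log2 signal minus the gene's mean over 6 arrays (vertical axis) at culture passages 47, 54 and 56 (horizontal axis, evenly spaced and not to scale). Filled symbols are siDicer arrays, open symbols siScr arrays, and lines join the passage means. Spry1 was highest at passage 47, Pik3r3 lowest and Jun and Phlpp1 highest at passage 54, in both groups.

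In the rest of these routes 3 genes were called with the block and 0 without it. Of 307 other genes listed for them, 66 had a probe set of their own among those analysed here, and only these are called measured. The probe sets with a name lie mostly on chromosomes 1 to 4, so most listed genes were not analysed, whether or not the array covers them. Of the 66, 3 rose, 0 fell and 63 did not pass with the block. The background for named genes with the block was 1.31%, or 0.922% for rises alone. Calls of 3 in 66 are a larger share than these, though named genes at large include more dim ones. Without the block 0 of the 66 passed (limma; 0.387% of named genes). At an unadjusted p under 0.05 in limma with the block, 12 of the 66 were higher and 5 lower in siDicer, 17 in all. The share over all probe sets was 15.7%, which includes unnamed and dim ones, whereas 64 of the 66 were brighter than the receptor background. The share among the 66 was the larger, but the 2 shares are not of like sets. The median change of the 66 was 0.0081.

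The 3 that rose with the block are not parts of the Ras to ERK core. Mertk, a receptor tyrosine kinase of the Tyro3 and Axl family, was at 7.83, 8.20 and 7.97 in siDicer cells, against 7.47, 7.78 and 7.44 in siScr cells. Its groups did not overlap and its change was 0.44 ± 0.06 (SE; limma, adjusted p = 0.0423, and 0.258 without the block). Nr4a2, an orphan nuclear receptor of the immediate early class, was at 7.61, 7.52 and 7.57 in siDicer cells, against 7.23, 7.18 and 7.16 in siScr cells. The groups were separate in Nr4a2 and its change was 0.38 ± 0.05 (SE; limma, adjusted p = 0.0449, and 0.0605 without the block). Tns1, which stood in the list of PI3K-Akt opponents, is a tensin of focal adhesions that binds integrin tails and actin. It was at 7.91, 8.58 and 7.92 in siDicer cells, against 7.59, 8.18 and 7.48 in siScr cells, overlapping because both passage 54 arrays were high. Its change was 0.39 ± 0.06 (SE; limma, adjusted p = 0.0474, and 0.605 without the block). None of the 3 passed after quantile or cyclic loess normalization, without replicate 2 or without replicate 3, and without replicate 1 only Mertk passed. With the block as a random effect, at an estimated correlation of 0.30 between paired arrays, Nr4a2 passed (limma, adjusted p = 0.0157) and Mertk and Tns1 did not (adjusted p = 0.0681 and adjusted p = 0.296).

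By role, the upstream list of receptor tyrosine kinases and adaptors had 11 measured genes, with Mertk the sole call. The adaptor Nck2 had a change of 0.34 (limma, adjusted p = 0.0875) and Shc4, a Shc family adaptor, one of 0.22 (adjusted p = 0.226). Among 13 Ras and Rap GTPases and regulators, Nras included, 0 passed. Rap1a, a Ras relative that acts on integrins, had a change of -0.31 (limma, adjusted p = 0.066) and the Rap exchange factor Rapgef2 one of 0.28 (adjusted p = 0.0988). Rgl1, an exchange factor for Ral, had -0.13 (limma, adjusted p = 0.343). Among 10 kinases and scaffolds of the MAPK cascades 0 passed. Mknk1, a kinase activated by ERK and p38, had a change of 0.40 (limma, adjusted p = 0.0695), the scaffold subunit Lamtor5 0.31 (adjusted p = 0.118) and the kinase Map3k7 0.16 (adjusted p = 0.262).

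The 6 measured MAPK feedback inhibitors, 3 of them members, had 0 calls and a median of -0.010. Dusp2, a phosphatase of ERK and p38, had a change of -0.17 (limma, adjusted p = 0.268), Errfi1, an inhibitor of ErbB receptors, 0.17 (adjusted p = 0.321), and Dusp19, another dual-specificity phosphatase, -0.12 (adjusted p = 0.391). Of 9 immediate early factors, Jun among them, Nr4a2 was the call. Its relative Nr4a3 had a change of 0.13 (limma, adjusted p = 0.345) and Elk4, an Ets factor that works with Srf, 0.096 (adjusted p = 0.453). Pik3c2b, a class II PI3K, was the remaining measured PI3K subunit, with 0.044 (limma, adjusted p = 0.728). Of 7 opponents of PI3K-Akt, Tns1 was the call. Trib3, a pseudokinase that binds Akt, had a change of -0.23 (limma, adjusted p = 0.28) and Ppp2r5a, a regulatory subunit of PP2A, -0.11 (adjusted p = 0.389). The Akt, mTOR and FoxO branch had no call among 16 genes, with a median change of -0.028. There Sesn2, an inhibitor of mTORC1, had a change of -0.29 (limma, adjusted p = 0.155), Prkaa2, a catalytic subunit of AMPK, 0.26 (adjusted p = 0.179), and Tsc1, which restrains Rheb, 0.18 (adjusted p = 0.227).

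**Figure D4:**
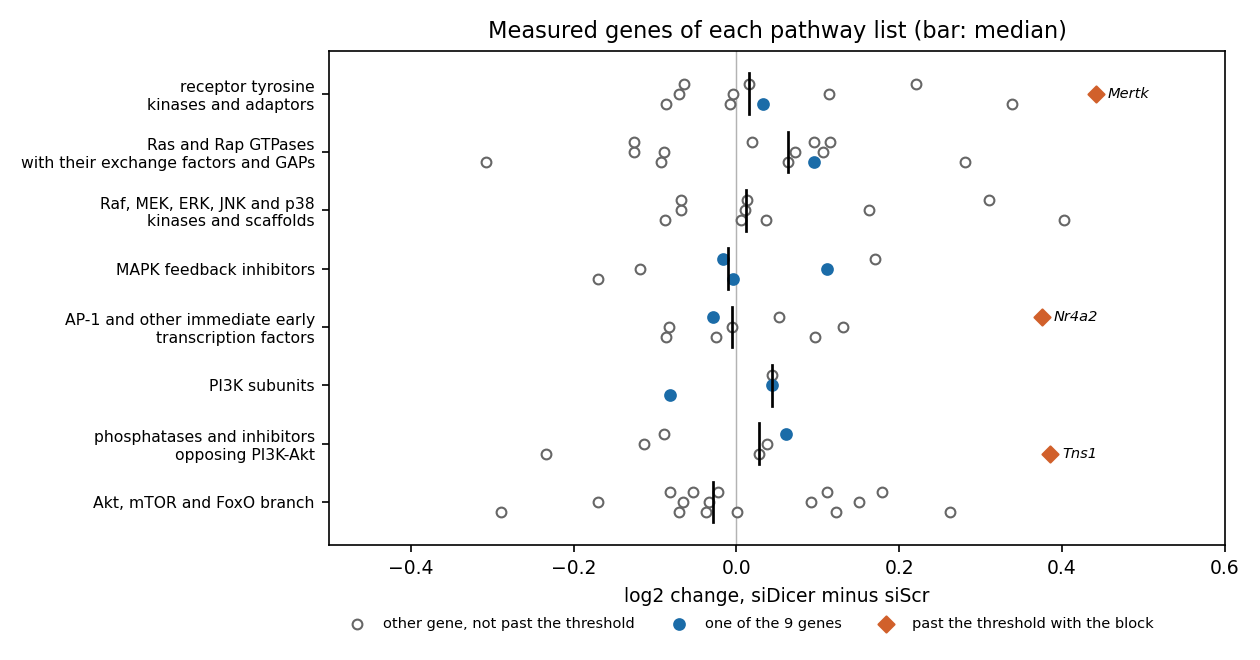
Log2 change, siDicer minus siScr (horizontal axis), of every measured gene of 8 pathway lists (rows, spread vertically for legibility), with the list median as a black bar. Blue circles are the 9 genes described above, open circles other genes, and orange diamonds the 3 genes past the threshold with passage pairs as a block. The 9 genes lie between -0.081 and 0.11, closer to 0 than Mertk, Nr4a2 and Tns1.

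As for the arrays as a whole, they correlated with r from 0.994 to 0.997 over all probe sets, and array medians lay between 4.58 and 4.64. All 9 genes were brighter than 4.22, the 95th percentile of 426 olfactory and vomeronasal receptor genes used as a gauge of background. The melanocyte genes Tyrp1, Pax3 and Mlph averaged 12.86, 10.57 and 10.21 in siDicer cells, against 12.83, 10.57 and 10.33 in siScr cells, and Mreg, also of that list of 4, rose by 0.62 with the block (limma, adjusted p = 0.0435; 0.0877 without). Of 6 fibroblast, 4 keratinocyte and 6 immune cell markers none passed. The summed log2 levels of the immune markers ran from 26.34 to 27.13 in siDicer and from 27.48 to 27.67 in siScr arrays, and these ranges did not overlap. All 6 immune markers had changes below 0. Of these C1qa, Fcer1g and C1qb, with changes of -0.29, -0.25 and -0.20, lay above the background gauge and had groups that did not overlap (limma, adjusted p from 0.176 to 0.283). C1qc, also above that gauge, had a change of -0.030, overlapping groups and a higher siDicer array at passage 56. Groups did not overlap in 19.0% of all probe sets brighter than the gauge. The defining marker Ptprc was below that gauge, at 2.84 in siDicer and 2.85 in siScr cells. The fibroblast sums ran from 31.18 to 32.14 in siDicer and from 31.04 to 32.05 in siScr arrays. Those of keratinocyte markers ran from 21.62 to 21.87 in siDicer and from 21.95 to 22.08 in siScr arrays, also without overlap. Their part in the results was not tested.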

How the data were processed

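Per the labels, RNA was prepared by the WT PLUS protocol for Clariom D mouse arrays. The table deposited by the authors holds a log2 signal for each probe set and array, and the submitters' processing notes name Affymetrix Expression Console. Its version, background correction, normalization and genome build were not given in the sources used here. Near-equal array medians point to scaling between arrays, which would hide a shift shared by most transcripts, and dim signals compress differences. Of 16383 probe sets, 7530 had 1 symbol, 455 several and 8398 none. Symbols of 230 were updated through Entrez numbers, and 7439 of those named lie on chromosomes 1 to 4, so other pathway genes are mostly not analysed here. Shares of all probe sets refer to these 16383 and not to every gene of the mouse.

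The comparison used limma 3.58.1 in R 4.3.3 (lmFit, eBayes) on all probe sets, unfiltered, siDicer minus siScr, with Benjamini-Hochberg adjustment. Replicate number was the block, since same-numbered arrays share a passage per the labels. Deviations from group means correlated with r of 0.44, 0.41 and 0.24 between same-numbered arrays. For simulated data over 16383 probe sets, changes were added to a part of them, with normal noise of each probe set's own residual spread. There this fit recovered 46.3% of changes of 0.5 log2 units, 56.7% of 0.75 and 83.3% of 1, with 4 false calls. Changes as small as those of the 9 genes were not simulated, and recovery depends on these settings. Members, lists and design were chosen with earlier results of these data known. Named were all 9 members, every listed gene past the threshold and, in each list, the 3 genes other than members with the smallest p, called ones included, from the probe set of highest mean. Markers were named as fixed lists. The number of arrays limits the precision.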

Additional observations from a re-analysis of the deposited data

How the results depend on the processing

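Of 117 refits of the 9 genes under 13 alternatives, 0 passed the threshold and 111 kept their direction. The lowest adjusted p was 0.231, for Spry1, and changes lay between -0.13 and 0.13. Nras, Pik3ca, Pik3r3, Phlpp1 and Spry1 kept their direction in all 13. Several alternatives change only the variance or the other probe sets tested, so the direction could not turn in them. Those that could turn it were the normalizations, median centring, array weights and the fits without a pair. Spred1 turned to 0.010 after median centring, and Shc1 to -0.00077 after cyclic loess. Leaving out 1 pair turned Spred1 (-0.061 to 0.056), Dusp10 (-0.048 to 0.032) and Jun (-0.097 to 0.0089). The -0.097 of Jun, without replicate 3, was larger in size than its change of -0.028 with all pairs. Member calls numbered 0 throughout.

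Calls over all probe sets were 163 with the replicate block and 35 without it, 84 after quantile normalization, 93 after cyclic loess, 291 for probe sets above the receptor background, 281 for those with 1 symbol and 302 with a variance trend. Leaving out a pair gave 0 to 157. Without replicate 2 and without replicate 3 limma called 0 probe sets, with 2171 and 1814 at an unadjusted p under 0.05. Calls among pathway genes were 3 with the replicate block and 0 without it, 0 after quantile normalization, 0 after cyclic loess, 5 above background, 7 with 1 symbol and 6 with a variance trend, and 0 to 1 when a pair was left out, Mertk without replicate 1. With the replicate block as a random effect 4 were called, Nr4a2, Nck2, Rap1a and Mknk1, and Mertk and Tns1 were not. Over all alternatives the genes gained were Rap1a, Mknk1, Nck2 and Rapgef2. The filtered fits test fewer probe sets and the trend fit uses other variances, and otherwise the cause was not tested. Mertk, Nr4a2 and Tns1 kept their direction in all 13 alternatives, several of which could not turn it, and passed in 7, 7 and 6. Another probe set per gene could not be tried, since each member has 1.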
